A study of Homo sapiens
Mus musculus and Homo sapiens with 12 samples.

Results

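The genes described here are 5 human ligands of the epidermal growth factor receptor (EGFR): AREG (amphiregulin), EREG (epiregulin), HBEGF (heparin-binding EGF-like growth factor), TGFA (transforming growth factor alpha) and BTC (betacellulin). They were chosen as a named gene family out of 5439 human genes that could be read in each of the 10 libraries used for them, and out of 7899 human genes with a value in at least 1 library. The human coding RefSeq transcripts of each gene were added up.

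The experiment measured polyadenylated RNA in a cell fusion time course, which asks how a fibroblast nucleus is reprogrammed after fusion with a pluripotent cell. Heterokaryons are sorted products of membrane fusion between human MRC5 fibroblasts and D3 mouse embryonic stem cells, in which the nuclei stay separate and the cell does not divide as a line; they were taken on day 1, day 2 and day 3, with 2 libraries a day. Homokaryons, 1 library, are human fibroblasts fused with each other. The co-culture, 2 libraries, held the same mouse and human cells side by side without fusion, and unfused fibroblasts were the human cells alone. MRC5 is an established line of human lung fibroblasts, so every heterokaryon library carries the RNA of 1 mouse line and 1 human line. Of the 3 unfused fibroblast libraries only replicate 2 could be read for all 5 ligands, so that group has 1 library here. Whether replicates came from separate cultures is not labelled; a p-value here weighs a difference against the spread between libraries alone, which may be technical. All values below are those listed under human transcripts, and the mouse ligand transcripts were not analysed here. Whether reads from mouse RNA were assigned to human transcripts in the mixed libraries was not tested. In bulk RNA from mixed cells, fewer human cells and less RNA per human cell cannot be told apart.

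EGFR ligands are made as precursors that span the membrane, and proteases of the ADAM family cut them so that the growth factor is released or acts on a neighbouring cell. The released part binds EGFR, or for some ligands also ERBB4, and starts signalling through RAS, RAF and the ERK kinases. AREG and TGFA bind EGFR alone, while HBEGF, EREG and BTC bind both EGFR and ERBB4. In fibroblasts and epithelia the ligand genes are themselves switched on by growth factor signalling, by cAMP and by YAP and TEAD, and the pathway induces its own inhibitors, among them the DUSP phosphatases and the Sprouty proteins.

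The family is held together by 1 EGF-like domain with 6 cysteines, which form the disulfide bonds of the receptor-binding fold. The stretches below are the coding DNA of that domain from its first to its last cysteine, 108 bases or 36 codons in each of the 5 genes, printed 5′ to 3′ with the 6 cysteine codons in capitals, to show what the ligands share. They were read from the GENCODE 29 transcripts that carry the same RefSeq accessions as the deposited values.
AREG: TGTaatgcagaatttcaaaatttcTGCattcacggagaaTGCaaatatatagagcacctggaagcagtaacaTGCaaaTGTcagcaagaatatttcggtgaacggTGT
HBEGF: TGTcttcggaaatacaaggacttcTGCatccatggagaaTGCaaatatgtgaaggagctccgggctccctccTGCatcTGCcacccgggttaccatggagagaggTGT
EREG: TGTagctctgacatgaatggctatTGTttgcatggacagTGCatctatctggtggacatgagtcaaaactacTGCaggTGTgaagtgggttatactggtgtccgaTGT
TGFA: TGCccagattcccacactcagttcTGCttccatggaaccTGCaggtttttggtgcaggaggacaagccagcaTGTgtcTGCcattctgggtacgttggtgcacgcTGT
BTC: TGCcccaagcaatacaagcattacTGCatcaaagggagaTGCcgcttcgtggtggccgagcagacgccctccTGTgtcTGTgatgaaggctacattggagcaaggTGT
In all 5 ligands the cysteines are separated by 7, 4, 10, 1 and 8 other residues. Outside that frame the bases differ: identity over the 108 positions ran from 46.3% between EREG and TGFA to 63.0% between TGFA and BTC, and AREG matched HBEGF at 59.3% and EREG at 50.9%. AREG, EREG and BTC lie on chromosome 4, where the protein-coding genes run in the order MTHFD2L, EPGN, EREG, AREG, BTC, PARM1; EPGN is a further EGFR ligand. HBEGF lies on chromosome 5 and TGFA on chromosome 2. The neighbours EREG and AREG did not have like levels, as the values below show.

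The deposited values have the form of RPKM, reads scaled by transcript length and library, and are called RPKM here; the tables do not state a unit and give no counts, so the read depth is unknown. A transcript absent from a table was taken as 0 where the table reaches its accession. Between 2081 and 2867 of the 5439 genes were above 0 in a library. Value times transcript length, over genes with 1 transcript, had a cluster near its low end in each library, taken as 1 step. Whether higher values fall on multiples of the step was not examined. If a step is 1 read, which was not tested, the libraries differed in depth by up to 6.53 times. Day 1 replicate 2 would then be the shallowest and unfused fibroblast replicate 2 the deepest. Of 12 fibroblast markers 7 could be read in all 10 libraries; they summed to between 4310 and 7090 RPKM in the heterokaryons, 15130 in the homokaryons, 6331 and 6362 in the co-cultures and 7366 in the unfused fibroblasts, and most of each sum was COL1A1, COL1A2 and VIM.

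AREG, the ligand that is cut from the cell surface by ADAM17, was the ligand that set the groups apart. AREG stood at 19.5 and 19.3 RPKM in the day 1 heterokaryons, at 27.4 and 23.1 in the day 2 heterokaryons and at 3.39 and 21.6 in the day 3 heterokaryons, against 232 and 297 RPKM in the co-cultures. It was not listed in the homokaryons and was at 3.23 RPKM in the unfused fibroblasts. All 6 heterokaryon libraries lay below both co-cultures, as for 10.1% of the 2444 genes tested. All 6 lay above the unfused fibroblast library, and the share of all genes above that single library was not counted. The order of the groups was co-culture, day 2, day 1 and day 3 heterokaryons, unfused fibroblasts and homokaryons; the 3 heterokaryon days did not differ by the tests given below, and day 3 replicate 1 was close to the unfused fibroblasts. The means were 19.4 ± 0.144 RPKM on day 1, 25.3 ± 3.02 on day 2, 12.5 ± 12.9 on day 3 and 264 ± 45.9 in the co-cultures (SD, n = 2 each).

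**Figure D1:**
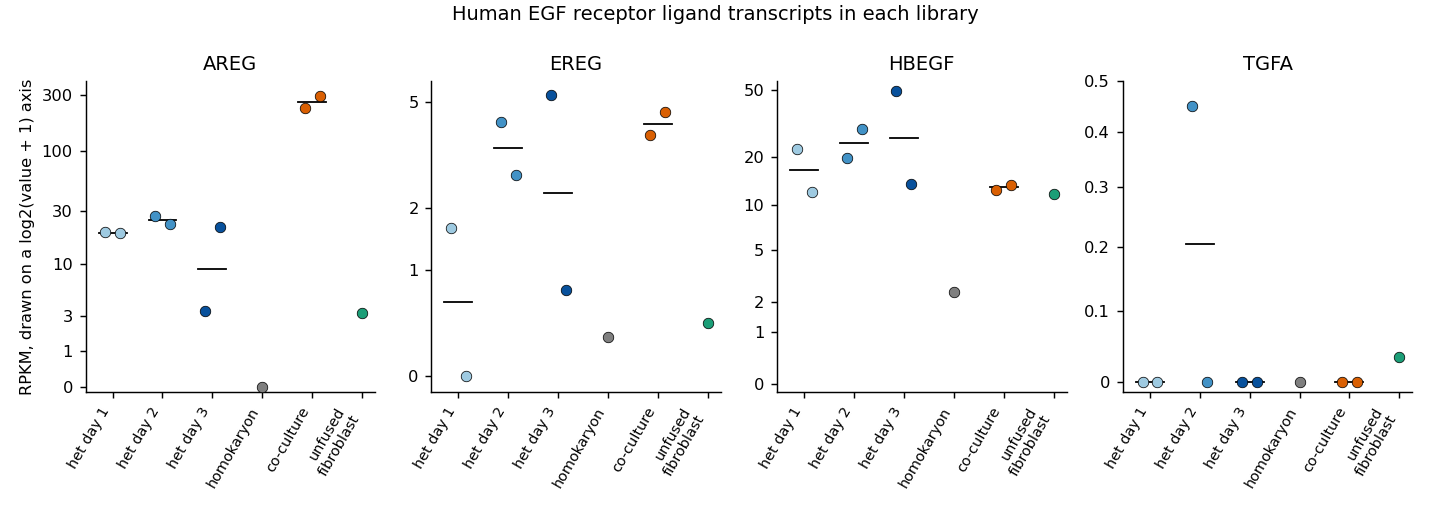
RPKM of 4 ligands in each library (y axis, log2(value + 1) scale, a separate range per panel) by group (x axis; het is heterokaryon); points are libraries and lines are means of log2(value + 1). AREG stood at 232 and 297 RPKM in the co-cultures and at 27.4 or less in the 6 heterokaryon libraries, while HBEGF spanned 12.2 to 49.5 RPKM in the heterokaryons around co-culture values of 12.5 and 13.4.

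HBEGF, a ligand known for its role in wound repair and as the diphtheria toxin receptor, was present in every library. HBEGF stood at 22.2 and 12.2 RPKM on day 1, at 19.8 and 29.3 on day 2 and at 49.5 and 13.6 on day 3 after fusion, against 12.5 and 13.4 RPKM in the co-cultures. It was at 2.43 RPKM in the homokaryons and at 11.8 in the unfused fibroblasts. Of the 6 heterokaryon libraries, 5 lay above both co-cultures and 1, day 1 replicate 2, lay below both, so the groups overlapped. All 6 lay above the homokaryon library and above the unfused fibroblast library. The share of all genes that lie above those single libraries in this way was not counted. The means were 17.2 ± 7.07, 24.6 ± 6.75 and 31.5 ± 25.4 RPKM on days 1, 2 and 3 and 13.0 ± 0.661 RPKM in the co-cultures (SD, n = 2 each), and neighbours in that order did not differ beyond their spread.

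EREG, a low-affinity ligand, was low throughout. EREG stood at 1.63 RPKM and unlisted on day 1, at 4.28 and 2.73 on day 2 and at 5.28 and 0.757 on day 3, against 3.83 and 4.61 RPKM in the co-cultures. It was at 0.291 RPKM in the homokaryons and at 0.419 in the unfused fibroblasts. Of the heterokaryon libraries 4 lay below both co-cultures and 1, day 3 replicate 1, lay above both. The unlisted value belongs to day 1 replicate 2, the shallowest library if a step is 1 read, which was not tested. In that library 16.8% of 665 genes at a mean of 2 to 10 RPKM in the co-cultures were also unlisted.

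TGFA, the classical autocrine ligand of transformed cells, had a value in 2 libraries: 0.450 RPKM in day 2 heterokaryon replicate 1, the sum of 2 transcripts at 0.225 each, and 0.0341 RPKM in the unfused fibroblasts. It was unlisted in the other heterokaryons, in the homokaryons and in both co-cultures. BTC, known from beta cells and epithelia, was unlisted in all 10 libraries. ADAM10, a protease that most cells make, was also unlisted in all 10, so an absence from every table cannot be told apart from an accession that was not measured.

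The summed level of the 5 ligands lay between 31.5 and 58.2 RPKM in the 6 heterokaryon libraries. It was 2.72 RPKM in the homokaryons, 248 and 315 in the co-cultures and 15.5 in the unfused fibroblasts. AREG made up 45.1% and 61.4% of that sum on day 1, 52.8% and 41.9% on day 2 and 5.82% and 60.1% on day 3 in the heterokaryons, against 93.4% and 94.3% in the co-cultures. HBEGF held between 37.7% and 85.1% of it in the heterokaryons, 89.3% in the homokaryons, 5.03% and 4.27% in the co-cultures and 76.2% in the unfused fibroblasts. AREG was the leading ligand in 3 of the 6 heterokaryon libraries and in both co-cultures, and HBEGF led in the other 3 heterokaryon libraries, in the homokaryons and in the unfused fibroblasts. Among the 5439 genes AREG ranked between 621st and 1523rd from the top in the heterokaryons, against 135th and 103rd in the co-cultures.

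**Figure D2:**
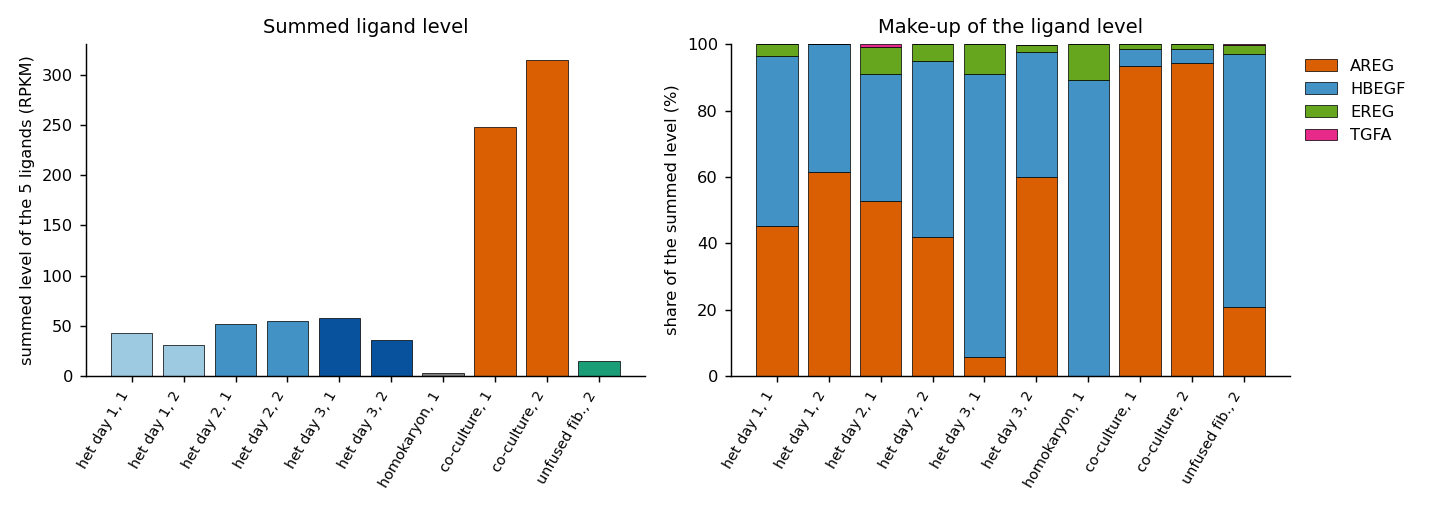
Left, summed RPKM of the 5 ligands (y axis) in each library (x axis; number after the comma is the replicate); right, the share of that sum held by each ligand in percent. AREG held 93.4% and 94.3% in the co-cultures and 5.82% to 61.4% in the heterokaryons, and HBEGF held 89.3% in the homokaryons and 76.2% in the unfused fibroblasts.

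The comparison of heterokaryons with co-culture sets fused cells beside the mere presence of both cell types. The heterokaryons were sorted, and the co-culture, homokaryons and unfused fibroblasts carry no labelled day. Fusion can therefore not be told apart from time in culture or handling. The comparison was tested on log2(value + 1) with limma across all genes. Called genes are those with an adjusted p (Benjamini-Hochberg) under 0.05. The scale understates the change of low genes. AREG, EREG and HBEGF passed the filter of 1 RPKM or more in at least 2 samples; TGFA and BTC did not.

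AREG was lower than in co-culture on each day. Its log2 fold change against co-culture was -3.69 on day 1 (SE 0.66, adjusted p = 0.0163, limma), a 12.9-fold lower level on the value + 1 scale. On day 2 it was -3.33 (SE 0.67, adjusted p = 0.0256, limma), and on day 3 it was -4.72 (SE 0.67, adjusted p = 0.0122, limma). These are 1 of 3 tested ligands called on each day, where 9.41% of 3581 genes were called on day 1, 8.84% of 2444 on day 2 and 2.82% of 3013 on day 3. Among lower calls alone the background was 3.94%, 3.19% and 0.763% on days 1, 2 and 3. AREG had the 15th lowest fold change of 3581 genes on day 1, the 8th lowest of 2444 on day 2 and the lowest of 3013 on day 3, next to median fold changes of all genes of 0.00, 0.30 and 0.07 on the log2 scale. Over the 6 heterokaryon libraries together its log2 fold change was -3.91 (SE 0.55, adjusted p = 0.00467, limma), the 2nd lowest of 2444 genes, of which 10.4% were called.

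The fold changes on days 1 and 2 kept their size when either group was reduced to 1 library, but the calls were lost. AREG then lay between -3.87 and -3.51 on day 1 and between -3.51 and -3.15 on day 2 on the log2 scale, with an SE of 0.897 to 0.933 and an adjusted p of 0.0731 to 0.166 (limma). On day 3 the call was kept without either heterokaryon library, at -3.54 without replicate 1 and -5.91 without replicate 2, and lost without co-culture replicate 1 (adjusted p = 0.125) or replicate 2 (adjusted p = 0.133, limma). A shared fold change over all 6 heterokaryons was kept without any 1 heterokaryon library and missed the threshold without co-culture replicate 1 (adjusted p = 0.0650) or replicate 2 (adjusted p = 0.0790). In the exact permutation test over libraries, 6 heterokaryons against 2 co-cultures, AREG had a two-sided p of 0.0357, the smallest that 28 splits allow, and 0.143 after Benjamini-Hochberg adjustment over the 4 ligands with any value. All 6 heterokaryon libraries lay below both co-cultures for AREG, as for 10.1% of the 2444 genes tested.

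**Figure D3:**
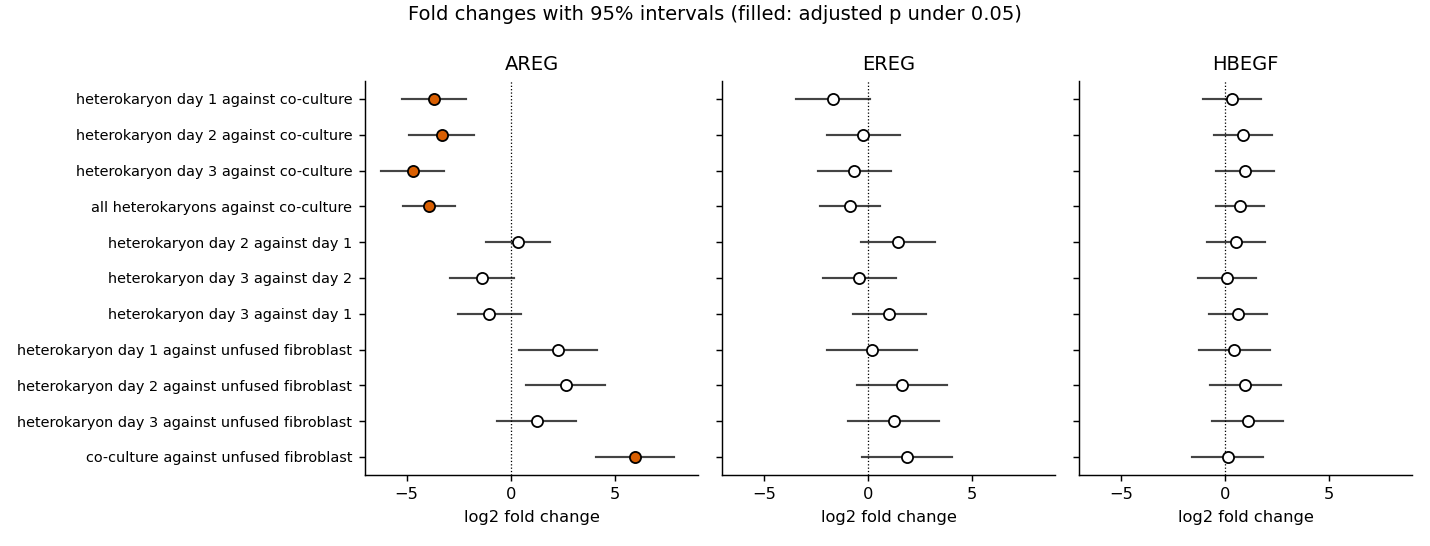
Log2 fold changes on the value + 1 scale (x axis) of the 3 tested ligands in the 11 comparisons (y axis), with 95% intervals from limma; filled points have an adjusted p under 0.05. AREG lay at -3.69, -3.33 and -4.72 against co-culture on days 1, 2 and 3 and at 5.96 in co-culture against unfused fibroblasts, and no EREG or HBEGF point was filled.

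EREG and HBEGF were not called on any day. For EREG the log2 fold change against co-culture was -1.68 on day 1 (95% interval -3.44 to 0.0763, adjusted p = 0.206, limma), -0.23 on day 2 (-1.99 to 1.53) and -0.65 on day 3 (-2.40 to 1.11). For HBEGF it was 0.32 on day 1 (95% interval -1.07 to 1.72, adjusted p = 0.780, limma), 0.85 on day 2 (-0.55 to 2.24) and 0.96 on day 3 (-0.43 to 2.35). With 2 libraries a day these intervals allow more than a doubling of HBEGF as well as no change, and they allow EREG to be lower or higher. The exact permutation test over 6 and 2 libraries gave a two-sided p of 0.286 for EREG and 0.25 for HBEGF.

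**Figure D4:**
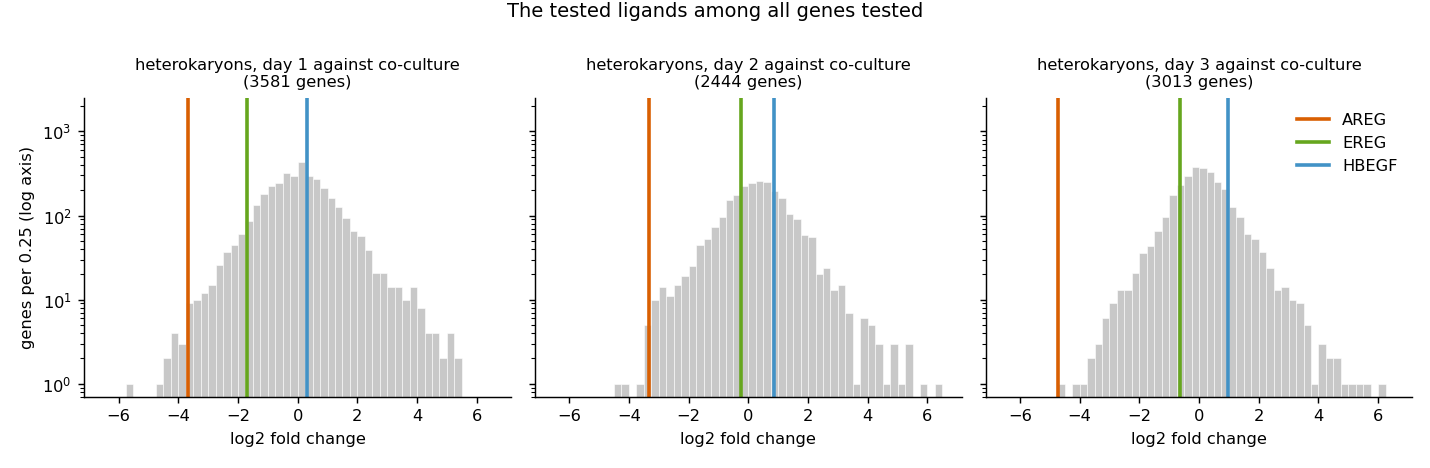
Distribution of log2 fold changes against co-culture over all genes tested (grey bars; y axis, genes per bin, log axis) on days 1, 2 and 3, with the 3 tested ligands as coloured lines. AREG sits in the lower tail on each day, 15th lowest of 3581, 8th lowest of 2444 and lowest of 3013 genes, while HBEGF lies right of 0 and EREG left of it.

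The days of the time course were compared with each other to ask whether ligand levels moved after fusion. No ligand was called between days, where 0.286% of 2444 genes were called between day 2 and day 1, 0 of 2444 between day 3 and day 2 (limma; 180 at an unadjusted p under 0.05) and 0.199% of 3013 between day 3 and day 1. AREG had a log2 fold change of 0.36 on day 2 against day 1, of -1.39 on day 3 against day 2 (95% interval -2.93 to 0.15, adjusted p = 0.662, limma) and of -1.03 on day 3 against day 1. Its value on day 3 rested on replicate 1: without that library it was 0.15 against day 1, and without replicate 2 it was -2.22 with an adjusted p of 0.0455 in limma. EREG had a log2 fold change of 1.45 on day 2 against day 1 (95% interval -0.31 to 3.21, adjusted p = 0.368, limma). HBEGF had 0.52 in that comparison and 0.11 on day 3 against day 2.

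The 2 day 3 heterokaryon libraries were unlike each other in all 3 ligands, and not in the same direction. Replicate 1 held 3.39 RPKM of AREG, 49.5 of HBEGF and 5.28 of EREG; replicate 2 held 21.6, 13.6 and 0.757. Replicate 1 was thus low in AREG and high in HBEGF and EREG. On the value + 1 scale the replicates differed 5.15-fold in AREG, 3.47-fold in HBEGF and 3.58-fold in EREG, and 3.85%, 9.56% and 9.03% of the 3013 genes tested on day 3 differed at least as much. On day 1 the replicates differed 1.01-fold in AREG, and 91.4% of 3581 genes differed as much or more.

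The homokaryon library shows what fusion of fibroblasts with each other goes with, without a mouse partner; it is a single library and no test was made. HBEGF was at 2.43 RPKM in the homokaryons and at 11.8 in the unfused fibroblasts, 4.84-fold lower. EREG was 1.44-fold lower in the homokaryons, at levels under 1 RPKM in both libraries. AREG was not listed in the homokaryons and was at 3.23 RPKM in the unfused fibroblasts; among 345 genes at 2 to 5 RPKM in the unfused fibroblasts, 9.28% were unlisted in the homokaryons. The ligand values of the homokaryons were thus all at or below those of the unfused fibroblasts. On log2(value + 1) AREG and HBEGF were lower by 1 or more in the homokaryons, as were 14.3% of 2474 genes, while 14.2% were higher by as much.

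Against the unfused fibroblasts no ligand was called in the heterokaryons, where 5.95% of 2656 genes were called on day 1, 5.16% of 2444 on day 2 and 2.52% of 2656 on day 3. AREG had a log2 fold change of 2.27 on day 1 (95% interval 0.39 to 4.15, adjusted p = 0.153, limma), of 2.63 on day 2 (0.74 to 4.51, adjusted p = 0.111) and of 1.23 on day 3 (-0.65 to 3.12). On day 3 the log2 fold change was 2.42 without replicate 1 (adjusted p = 0.0205, limma), and without replicate 2 it was 0.05. HBEGF had log2 fold changes of 0.45, 0.97 and 1.09 on days 1, 2 and 3, and EREG of 0.19, 1.64 and 1.23, each with an interval that spans 0. The lone fibroblast library was assumed to vary like the other groups.

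Co-culture against unfused fibroblasts asks what the neighbouring mouse cells go with in unfused human cells. AREG was at 232 and 297 RPKM in the co-cultures and at 3.23 in the unfused fibroblasts. It rose by 5.96 on the log2 scale (SE 0.82, adjusted p = 0.0202, limma), 62.2-fold on the value + 1 scale and the 3rd highest of 2656 genes, of which 0.791% were called and 0.640% called higher. The call was lost without co-culture replicate 1 (adjusted p = 0.175) or replicate 2 (adjusted p = 0.247), and no value could be had without the 1 fibroblast library. EREG had a log2 fold change of 1.87 (95% interval -0.29 to 4.04, adjusted p = 0.764, limma). HBEGF, at 12.5 and 13.4 RPKM in the co-cultures and 11.8 in the unfused fibroblasts, had 0.13 (-1.58 to 1.84). The fold changes of AREG against co-culture and against unfused fibroblasts share their libraries and are not independent of each other.

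Other parts of the EGFR pathway were read from 7 lists with 87 genes in all, of which 29 could be read in all 10 libraries. Of these 87 genes 42 were tested on day 1 with 2 called higher and 4 lower against co-culture, 25 on day 2 with 2 higher and 2 lower, and 34 on day 3 with 2 higher and 0 lower. The median log2 fold changes over the tested genes of the lists were -0.44, 0.04 and 0.14 on days 1, 2 and 3, beside medians of 0.00, 0.30 and 0.07 over all genes. Of all genes tested, 9.41% were called on day 1, 8.84% on day 2 and 2.82% on day 3. The shares called in the lists were higher on each day, and this difference was not tested. The lists were chosen with earlier results of these data known, so no conclusion is drawn from it.

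**Figure D5:**
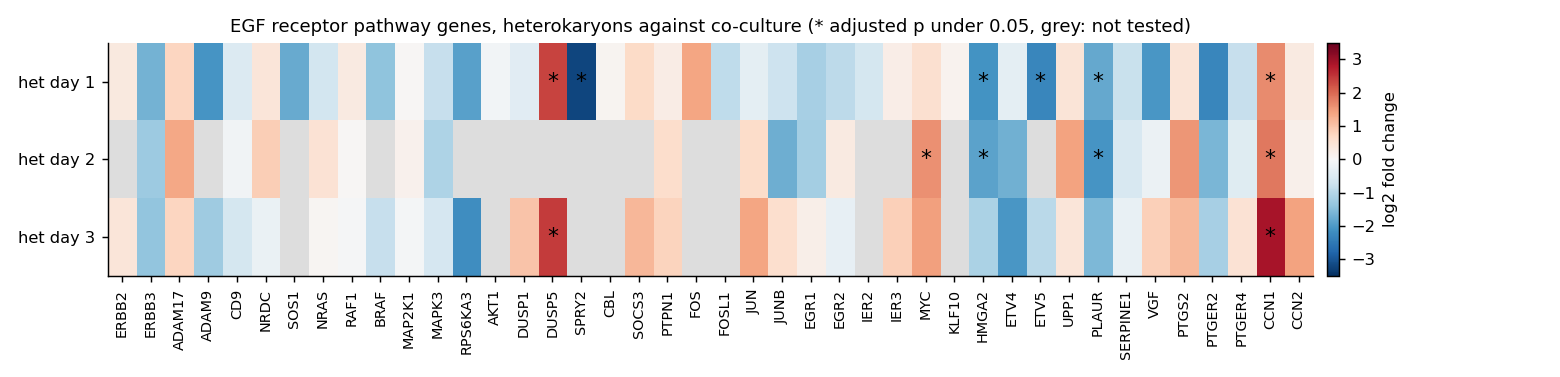
Log2 fold change against co-culture (colour, value + 1 scale) of the pathway genes tested on at least 1 day (x axis) on heterokaryon days 1, 2 and 3 (rows, top to bottom); a star marks an adjusted p under 0.05 and grey a gene that was not tested. CCN1 is starred on all 3 days at 1.65, 1.84 and 2.88, HMGA2 and PLAUR on days 1 and 2 below 0.

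Of the other ligands EGF was at 1.12 RPKM or less in each library, EPGN and NRG3 were unlisted, and none was tested; NRG1, NRG2 and NRG4 were not analysed here. Among the receptors EGFR was not analysed here. ERBB2, the co-receptor that binds no ligand itself, was at 27.4 and 19.4 RPKM on day 1 and 25.4 and 23.7 on day 3 in the heterokaryons, against 14.6 and 22.1 in the co-cultures, and was not called. ERBB3, the neuregulin receptor, had log2 fold changes of -1.64, -1.26 and -1.37 on days 1, 2 and 3 and was not called either. Among 4 tested genes of ligand shedding none was called: ADAM17, the protease that releases AREG, HBEGF, EREG and TGFA, was at 9.09 to 18.3 RPKM in the 6 heterokaryon libraries against 6.16 and 5.69 in the co-cultures, with a log2 fold change of 1.34 on day 2 (SE 0.42, adjusted p = 0.0842, limma). CD9, a membrane partner of HBEGF, was at 142 to 262 RPKM in the heterokaryons and 244 and 251 in the co-cultures. None of the adaptors and kinases, of which at most 8 were tested on a day, was called; MAPK3, which encodes ERK1, was at 54.7 to 125 RPKM in the heterokaryons against 118 and 134 in the co-cultures.

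Of 6 feedback inhibitors tested on day 1, 1 rose and 1 fell, and of 4 tested on day 3, 1 rose. SPRY2, a Sprouty inhibitor of RAS signalling, was at 2.22 and 4.42 RPKM in the day 1 heterokaryons against 29.7 and 48.0 in the co-cultures, and fell by 3.21 on the log2 scale (SE 0.52, adjusted p = 0.0204, limma); it was not tested on the later days. DUSP5, a nuclear phosphatase of ERK, was at 88.7 and 63.8 RPKM on day 1 and 50.6 and 125 on day 3 against 11.5 and 16.5 in the co-cultures. On the log2 scale it rose by 2.37 on day 1 (SE 0.46, adjusted p = 0.0258) and by 2.45 on day 3 (SE 0.47, adjusted p = 0.0425, limma). SPRY2 lost its call without 3 of the 4 libraries, DUSP5 lost its call without any 1 of the 4 on day 1, and on day 3 without heterokaryon replicate 2 or either co-culture. Among other settings of the processing the SPRY2 call held in 7 of 9, the DUSP5 call in 6 of 9 on day 1 and in 3 of 9 on day 3 (adjusted p up to 0.171, limma).

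Of the genes that the pathway is known to induce, HMGA2, PLAUR and ETV5 fell and MYC rose on at least 1 day. HMGA2, an architectural chromatin protein, was at 20.7 and 44.5 RPKM on day 1, 28.8 and 44.3 on day 2 and 55.2 and 67.1 on day 3, against 135 and 130.1 in the co-cultures; it fell by 2.08 on day 1 (adjusted p = 0.0190) and by 1.86 on day 2 (adjusted p = 0.0284, limma). PLAUR, the urokinase receptor, lay between 23.1 and 57.1 RPKM in the 6 heterokaryon libraries against 140.0 and 139 in the co-cultures, and fell by 1.78 on day 1 (adjusted p = 0.0390) and by 2.05 on day 2 (adjusted p = 0.0279, limma). ETV5, an ETS factor downstream of ERK, was at 4.37 and 5.33 RPKM on day 1 against 26.4 and 28.2 in the co-cultures and fell by 2.28 (adjusted p = 0.0273, limma). On day 3 ETV5 was at 9.97 and 19.0 RPKM and was not called (log2 fold change -0.94, adjusted p = 0.364, limma). It was not tested on day 2. MYC, the growth regulator, was at 57.5 and 60.8 RPKM on day 2 against 19.5 and 17.9 in the co-cultures and rose by 1.61 (adjusted p = 0.0394, limma). Of 17 tested genes of this list on day 1, 0 were higher and 3 lower; of 11 on day 2, 1 was higher and 2 were lower; of 13 on day 3 none was called. The calls of HMGA2, PLAUR and MYC on day 2 and of ETV5 on day 1 were lost without any 1 of the 4 libraries. On day 1 the HMGA2 call was lost without heterokaryon replicate 1 or either co-culture library. The PLAUR call on day 1 was lost without heterokaryon replicate 2 or either co-culture library. Among other settings of the processing the PLAUR call held in 4 of 11 on day 1 (adjusted p up to 0.118, limma) and in 7 of 11 on day 2, and the MYC call in 5 of 11. The HMGA2 call held in 9 of 11 on day 1 and 7 of 11 on day 2, and the ETV5 call in 7 of 9; no direction changed.

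CCN1, a matricellular target of YAP, was the pathway gene called on all 3 days. CCN1 was at 238 and 209.8 RPKM on day 1, 277 and 232 on day 2 and 340 and 808 on day 3, against 78.9 and 62.5 in the co-cultures; it was at 190 in the unfused fibroblasts. It rose by 1.65 on day 1 (adjusted p = 0.0343), 1.84 on day 2 (adjusted p = 0.0279) and 2.88 on day 3 (adjusted p = 0.0103, limma). Its call was lost without any 1 of the 4 libraries on days 1 and 2 and without either co-culture on day 3. Among 11 other settings of the processing its call held in 4 on day 1 (adjusted p up to 0.101, limma), in 8 on day 2 and in 9 on day 3, with log2 fold changes of 1.40 or more throughout. CCN2, another gene of the same list, was called on no day, with log2 fold changes of 0.31, 0.18 and 1.40 on days 1, 2 and 3. CCN2 was at 39.8 to 228 RPKM in the heterokaryons against 42.8 and 41.3 in the co-cultures. Whether YAP activity differed was not tested. PTGS2, the cyclooxygenase that feeds cAMP signalling through prostaglandin E2, was at 0 to 7.33 RPKM in the heterokaryons against 1.04 and 1.10 in the co-cultures and was not called. PTGER2, of the same list, was at 0 in both day 1 libraries against 3.65 and 4.01 RPKM in the co-cultures. Its log2 fold changes were -2.27, -1.61 and -1.15 on days 1, 2 and 3, and those of PTGER4 were -0.81, -0.43 and 0.51. Neither was called (PTGER2 on day 1: adjusted p = 0.0684, limma).

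The ligands are prominent in epithelia, and of 10 epithelial markers 6 could be read in all 10 libraries. Their summed level lay between 109 and 595 RPKM in the heterokaryons, at 16.7 in the homokaryons, 5.94 and 20.3 in the co-cultures and 7.98 in the unfused fibroblasts. Of the 6, KRT19 was called higher against co-culture on all 3 days, CLDN4 on days 1 and 2 and KRT14 on day 3. KRT19, a keratin of simple epithelia, was at 58.4 to 329 RPKM in the heterokaryons against 5.94 and 6.29 in the co-cultures, and its call held on each day without any 1 library. CLDN4, a tight junction protein, was at up to 32.2 RPKM in the 6 heterokaryon libraries, all above the 0 and 1.60 RPKM of the co-cultures; its call was lost without either of 2 libraries on day 1 and any 1 of 3 on day 2. KRT14 was at 2.73 and 3.85 RPKM on day 3 against 0 in both co-cultures. Its call was lost without heterokaryon replicate 2 or either co-culture, and it held in 7 of 10 other settings of the processing. KRT8 ranged from 0 to 361 RPKM in the heterokaryons against 0 and 12.4 in the co-cultures and was not called (adjusted p = 0.395, 0.614 and 0.190 on days 1, 2 and 3, limma). EPCAM was at 3.33 RPKM or less in each library and was not called, and KRT5 was above 0 in 1 library and was not tested.

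Some fibroblast markers were lower than in co-culture on days 1 and 2, and others were not. Of the 7 that could be read, COL5A1 and PDGFRB fell against co-culture on day 1 and COL3A1, COL5A1 and PDGFRB on day 2, while none was called on day 3. COL5A1, a fibrillar collagen chain, was at 41.2 and 38.9 RPKM on day 1 and 42.2 and 49.5 on day 2, against 96.6 and 104 in the co-cultures; it fell by 1.30 on day 1 (adjusted p = 0.0209) and by 1.12 on day 2 (adjusted p = 0.0368, limma). PDGFRB, a receptor of platelet-derived growth factor, fell by 1.32 on day 1 (adjusted p = 0.0298) and was lower on day 2 as well (adjusted p = 0.0455, limma). COL3A1 was at 73.4 and 111 RPKM on day 2 against 199 and 239 in the co-cultures and fell by 1.27 (adjusted p = 0.0317, limma). Each of these 5 calls was lost without any 1 library, and COL1A1, COL1A2, VIM and LUM were called on no day. On day 1 COL1A1, COL1A2 and LUM had log2 fold changes of 0.28, 0.24 and 0.50, and VIM had -0.14. On day 3, when AREG was at its lowest fold change, COL5A1 had -0.07. The part of the epithelial and fibroblast markers in the ligand values was not tested. Blood cell markers summed to 1.82 RPKM or less and endothelial markers to 24.8 or less. Of 7 pluripotency markers only PODXL, a surface protein of pluripotent cells, was tested against co-culture, and only on day 1. PODXL was called higher there, a call that was lost without co-culture replicate 1. SOX2 was at 0 in each library.

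The genes most like each ligand over the 10 libraries were found by Pearson's r of log2(value + 1), among 1397 or 1398 genes with a mean of 5 RPKM or more, as a description. ETV4, an ETS factor, had an r of 0.873 with AREG, LIMK1, a kinase of actin turnover, 0.865, and TGFB1, the cytokine, 0.864. ETV4 was at 45.6 and 70.2 RPKM on day 1, 24.1 and 19.7 on day 2 and 9.38 and 30.1 on day 3, against 89.5 and 58.3 in the co-cultures; it was at 5.02 in the homokaryons and 12.5 in the unfused fibroblasts. Like AREG it had its highest group mean in co-culture and was lower in day 3 replicate 1 than in replicate 2, and lowest in the homokaryons. ITSN1, an endocytic scaffold, had an r of 0.923 with HBEGF, ODC1, the first enzyme of polyamine synthesis, 0.896, and MAP2K1, which encodes MEK1, 0.871. CTNNB1, TOR1A and PSMD11 had r of 0.746, 0.743 and 0.733 with EREG. The libraries share groups and may differ in depth, so these r values describe the same few contrasts.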

How the data were processed

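Poly(A) RNA was sequenced from 12 samples. Each deposited table gives RefSeq transcripts with 1 value each; the builds were mm10 and hg19, per the submitters' processing notes, and the sources used here do not name the aligner. The unit is not stated in the file headers: 11 tables were taken as RPKM computed by the authors, an inference from their form. The table of unfused fibroblast replicate 3 holds no human accession and was not used. Each of the 11 tables holds exactly 10000 distinct values. In accession order, every row past a library's end repeats a value already listed (0 new values among 195 to 589 rows), so an absent transcript was taken as 0 before that end and as not covered past it. Unfused fibroblast replicate 1 ends before every ligand transcript but 1 of TGFA, which it does not list.

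Human coding transcripts were summed per gene; 132 older accessions were named through GENCODE 29 metadata, 250 stayed unnamed, and 280 genes whose accession numbers lie within 2 of these were set aside, none a ligand. Genes at 1 RPKM or more in at least 2 samples were tested with limma 3.58.1 in R 4.3.3 (lmFit, eBayes with a trend) on log2(value + 1), all replicated groups sharing 1 estimate of spread, with Benjamini-Hochberg adjustment over all genes and a threshold of 0.05; a lone library was assumed to vary like the others. Two-sided exact permutation tests enumerated all splits. The code was tested on simulated data. No count test was used, and depth is unknown. Alternatives were other pseudocounts, filters, scalings, transcript rules, a replicate block and leaving out each library.

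The ligands, the pathway lists and the marker lists were chosen with earlier results of these data known. Genes of the lists are named if called on at least 1 heterokaryon day against co-culture, plus up to 4 others per list with the smallest adjusted p; the 3 most alike genes are named per ligand. EGF, EPGN and NRG3 are given for their role, and ADAM10 and the marker genes named were singled out after their values were seen. Levels carry the SD over libraries and fold changes the SE from limma. Intervals cover 95%.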

Additional observations from a re-analysis of the deposited data

Results flagged for a closer look

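AREG lay on opposite sides of the unfused fibroblast library in heterokaryons and homokaryons. The 6 heterokaryon libraries were all above the unfused fibroblast library, at 3.39 to 27.4 RPKM against 3.23. The homokaryon library, in which AREG was not listed, was below the unfused fibroblast library. The share of all genes that lie on opposite sides in this way was not counted. Day 3 replicate 1, at 3.39 RPKM, was close to the unfused fibroblasts, and AREG was not called in the heterokaryons against them on any day. The mean of log2(value + 1) over the 6 heterokaryon libraries was 4.13 above that of the homokaryon library. The difference was not tested.

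HBEGF was at 12.2 to 49.5 RPKM in the 6 heterokaryon libraries, at 2.43 in the homokaryon library and at 11.8 in the unfused fibroblast library. The lowest heterokaryon libraries, at 12.2 and 13.6 RPKM, were close to the unfused fibroblasts, and HBEGF was not called against them on any day. The heterokaryon mean of log2(value + 1) was 2.73 above the homokaryon value, and this difference was not tested either.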

How the results depend on the processing

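For AREG, the fold changes against co-culture stayed below 0 in every alternative run on days 1, 2 and 3 and over all heterokaryons, and 1 change of setting in places moved the adjusted p past 0.05 in limma. With no filter on low values AREG kept -3.69, -3.33 and -4.72 on days 1, 2 and 3 but had adjusted p of 0.0610, 0.0745 and 0.0622, and 5.96 in co-culture against unfused fibroblasts had 0.0615; on day 1 the unadjusted p was 0.00341 there (SE 0.74), against 0.000519 with the filter (SE 0.66). With only the 2 groups compared in the fit, adjusted p was 0.0541 on day 1 (-3.69), 0.154 on day 3 (-4.72) and 0.0652 in co-culture against unfused fibroblasts (5.96). With genes covered in part included it was 0.0628 on day 2 (-3.33) and 0.0547 in co-culture against unfused fibroblasts (5.96), and without a trend 0.0754 in that same comparison (5.96). Upper quartile and quantile scaling kept the AREG calls against co-culture.

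Fold changes of EREG and HBEGF that were near 0 changed sign, none of them called. Against unfused fibroblasts EREG on day 1 was -0.32 with a pseudocount of 0.1, -0.0065 under upper quartile scaling and -0.25 with the replicate block; HBEGF on day 1 was -0.21 under upper quartile scaling, and HBEGF in co-culture was -0.32 under that scaling and -0.12 with the block. The cause was not tested.

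Counts of called genes moved more than those of the ligands. Against co-culture, day 1 (337 genes) gave 192 with no filter, 211 under quantile scaling, 0 with only the 2 groups and 217 with the single highest transcript. Day 2 (216) gave 375 with only the 2 groups and 139 with genes covered in part. Day 3 (85) gave 46 with no filter, 0 with only the 2 groups and 44 with the single highest transcript. Day 2 against day 1 (7) gave 0 with a pseudocount of 0.1, 20 with no filter, 0 with a filter at 5, 21 under upper quartile and 0 under quantile scaling, 0 with only the 2 groups, 17 with genes covered in part, 12 with the single highest transcript and 3 without a trend. Day 3 against day 2 (0) gave 7 with no filter and 11 with genes covered in part. Day 3 against day 1 (6) gave 38 with a pseudocount of 5, 29 with a filter at 5, 51 under upper quartile and 10 under quantile scaling, 0 with only the 2 groups, 24 with genes covered in part and 1 without a trend. Against unfused fibroblasts, day 1 (158) gave 99 under quantile scaling, day 2 (126) gave 22 with only the 2 groups, and day 3 (67) gave 125 with no filter, 39 under quantile scaling and 0 with only the 2 groups. Co-culture against unfused fibroblasts (21) gave 50 with no filter, 10 under upper quartile and 12 under quantile scaling, 68 with only the 2 groups, 9 with the single highest transcript and 7 without a trend.

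Scaling moved the split of calls against co-culture: 58.2%, 63.9% and 72.9% were higher on days 1, 2 and 3, against 45.3%, 75.9% and 81.0% under upper quartile scaling and 49.8%, 48.6% and 58.2% under quantile scaling. Upper quartile scaling shifted the median of all genes on day 1 against co-culture to -0.11, and on day 2 to 0.47.

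Replicate numbers did not pair the libraries: the deviations of same-numbered libraries correlated between -0.105 and 0.077. With the replicate block day 3 against co-culture gave 56 calls, day 2 against day 1 and day 3 against day 1 gave 0 each, and co-culture against unfused fibroblasts gave 12; no AREG call against co-culture was lost, while MYC, COL5A1 and PDGFRB on day 2 and DUSP5 and KRT14 on day 3 lost theirs. With the numbers crossed, an alternative chosen after seeing the data, day 3 against day 2 gave 0.

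Leaving out each library in turn, counts ran from 21 to 203 on day 1, 29 to 37 on day 2, 5 to 143 on day 3 and 35 to 345 over all heterokaryons against co-culture. They ran from 0 to 4 for day 2 against day 1, 0 to 7 for day 3 against day 2 and 0 to 40 for day 3 against day 1. Against unfused fibroblasts they ran from 81 to 102 on day 1, 37 to 77 on day 2, 42 to 146 on day 3 and 2 to 12 for co-culture. AREG ran from -3.87 to -3.51 on day 1, -3.51 to -3.15 on day 2, -5.91 to -3.54 on day 3 and -4.31 to -3.52 over all heterokaryons against co-culture, -2.22 to 0.15 for day 3 against day 1, 0.0518 to 2.42 for day 3 and 5.78 to 6.13 for co-culture against unfused fibroblasts. HBEGF ran from -0.0831 to 0.73 on day 1 against co-culture, -0.79 to 1.01 for day 3 against day 2 and -0.26 to 1.53 for day 3 against day 1. EREG ran from -0.48 to 0.0217 on day 2 and -1.57 to 0.27 on day 3 against co-culture, -1.34 to 0.50 for day 3 against day 2 and -0.50 to 0.89 for day 1 against unfused fibroblasts. The homokaryon ratio of HBEGF with unfused fibroblast replicate 2 alone is the reported one, 0.207, because replicate 1 does not cover HBEGF; leaving out replicate 2 was not run, since no value is left. Depth is unknown, so a value of 0 was not shown to be an absence.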
